A study of Mus musculus with 2 samples.

Results

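A set of 10 genes of the T-box family was followed in the H3K27me3 map of rib chondrocytes. They are Tbx1, Tbx2, Tbx3, Tbx4, Tbx5, Tbx6, Tbx15, Tbx18, Tbx20 and Tbx21, taken by name, and every row of the deposited region list that named one of them was used. Of these 10 genes, 8 were named by the list, through 21 of its 2017 regions. Tbx3 and Tbx6 were named by 0 regions. A gene is named by a region when the region lies within 5000 bp of it, and none of the 21 regions named a second gene. The study drew its marked genes from a further deposited series as well, which was not analysed here, and a gene that this list does not name is not shown to lack the mark.

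T-box proteins are transcription factors that bind DNA through a shared domain, and their genes are switched on in restricted fields of the embryo. Tbx5 marks the forelimb field and the heart, and Tbx4 the hindlimb field, whereas Tbx2 and Tbx3 encode repressors active at limb margins and in the cardiac conduction tissue. Tbx15 and Tbx18 are related genes of limb, body wall and somite mesenchyme, Tbx1 and Tbx20 serve the pharyngeal arches and the heart, Tbx6 serves the paraxial mesoderm from which somites, and later ribs, arise, and Tbx21 (T-bet) directs T helper cells. Polycomb repressive complex 2 (PRC2) places H3K27me3, trimethylation of a lysine in the tail of histone H3, on many such developmental genes in cells that keep them silent.

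There was 1 library of immunoprecipitated chromatin and 1 library of input DNA, the same chromatin sequenced without the antibody, so no value below has a replicate. By their labels, both came from rib chondrocytes of 11 wild-type (wt) mice of the CD1 strain at postnatal day 2.5 (p2.5), pooled and grown overnight in DMEM with 5% FCS (fetal calf serum) to near confluence on 2 dishes of 10 cm. The input was 2% of the chromatin. The labels name no deletion and no drug, and the overnight culture is the only treatment they give. The list holds sequenced tags (mapped reads) per region, 143822 from the ChIP and 19260 from the input over all regions. The full depth of the libraries is not known from it, so ratios of ChIP to input tags are not scaled for depth, and every interval covers counting error only. Of 19 genes that mark cartilage, 18 (among them Sox9, Col2a1 and Acan) were named by 0 regions and Ihh by 1. Among genes of other cells that a rib preparation can hold, 1 of 4 for muscle (Pax7), 1 of 5 for perichondrium and bone (Col1a1), 0 of 3 for blood and 0 of 3 for endothelium were named. The list named 3.9% of all protein-coding genes, and these marker lists are too short to read against that share. They therefore do not check the cell type. A list of regions does not show which genes were expressed.

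The 8 genes fell into 4 with a single region (Tbx2, Tbx18, Tbx20 and Tbx21) and 4 with several (Tbx4 and Tbx5 with 5 each, Tbx15 with 4 and Tbx1 with 3). Of 21896 protein-coding genes in RefSeq, 855 were named by the list, a background of 3.9%. The 8 of 10 stand beside this share as a description, because the 10 genes were picked with results of this map known. By the length of sequence in regions, Tbx4 came first with 8617 bp, followed by Tbx5 with 6181 bp, Tbx15 with 6087 bp, Tbx1 with 3969 bp, Tbx21 with 2394 bp, Tbx2 with 1872 bp, Tbx18 with 1213 bp and Tbx20 with 675 bp. Of the 914 other genes in the list, 63.7% had 1 region and 28 (3.06%) had 5 or more.

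**Figure D1:**
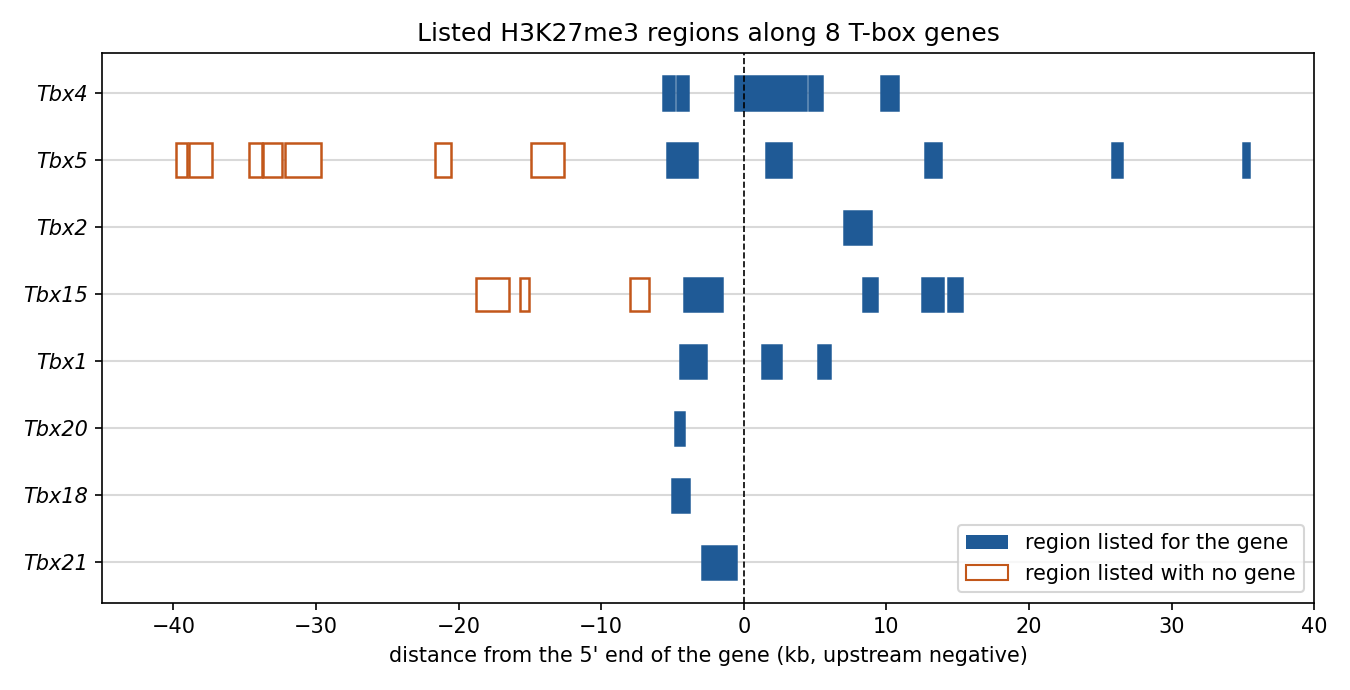
Each bar is a listed H3K27me3 region, placed by its distance in kb from the 5′ end of the gene (dashed line, upstream to the left), with filled bars for regions that the list assigns to the gene and open bars for regions that it assigns to no gene. At Tbx4 a region of 4996 bp crosses the 5′ end, at Tbx5 the filled and open bars together run over 75269 bp, and the single regions of Tbx18, Tbx20 and Tbx21 lie upstream.

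Tbx4, the hindlimb gene, held the highest-ranked of the 21 regions. On chromosome 11 (mm9) the region from 85702949 to 85707945 held 252 ChIP against 34 input tags. The ratio was 7.41 (5.17 to 10.9, the 95% interval by the Clopper-Pearson method), with a −log10 q-value of 198 and rank 43 of 2017. This region was also the longest of the 21, and its 50.4 ChIP tags per kb were below their median of 52.5. It was the only 1 of the 21 regions that covered a 5′ end of its gene, where 6.06% of all 1535 gene assignments in the list did so. The other Tbx4 regions were smaller. A pair of them lay upstream, 4916 and 3907 bp from the 5′ end, with 41 ChIP and 4 input tags in the farther and 44 and 5 in the nearer. The remaining pair lay within the gene, with 47 ChIP and 2 input tags from 85708138 to 85709033 and 60 and 4 from 85713193 to 85714357.

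The distances in the list place the 5′ end of Tbx4 at 85703565 for the upstream pair and at 85710267 for the pair within the gene, 6702 bp apart, so the list used more than 1 start for this gene. The large region covered the first start, and the second lay in the gap between the remaining pair. The profile of the large region was highest 3842 bp downstream of the first start, with a height of 10.4 in the ChIP against 0.755 in the input. Along the 16470 bp from the first to the last Tbx4 region, 52.3% of the sequence was in regions, and the gaps ranged from 193 to 4160 bp. Over the 5 regions, 444 ChIP against 49 input tags made the ratio 9.06 (6.74 to 12.4).

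Tbx2 lies next to Tbx4 on chromosome 11 and had 1 region, from 85653144 to 85655016, which overlapped the gene 7027 bp from its 5′ end. It held 115 ChIP against 10 input tags, a ratio of 11.5 (6.03 to 24.6), and the highest density of the 21 regions, with 61.4 ChIP tags per kb (exact Poisson interval 50.7 to 73.7). The 42871 bp between this region and the first Tbx4 region contained 0 listed regions.

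Tbx5, the forelimb and heart gene on chromosome 5, had its 5 regions spread most widely. The distances in the list all point to a 5′ end at 120284672. One region lay 3273 bp upstream, with 108 ChIP against 6 input tags. Within the gene, the region 1581 bp downstream of the 5′ end held 85 ChIP and 6 input tags, and those 12686, 25792 and 34979 bp downstream held 61 and 10, 40 and 6, and 28 and 2. Going into the gene the regions became shorter, from 1716 to 1112, 747 and 469 bp, while their ChIP density stayed between 49.5 and 59.7 tags per kb, with overlapping intervals. The 5′ end itself lay in a gap of 4854 bp between regions. Together the 5 regions held 322 ChIP against 30 input tags, a ratio of 10.7 (7.37 to 16.2). They filled 15.1% of the 40858 bp that they spanned.

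Farther upstream of Tbx5 the list continues with 7 regions that name 0 genes, because they lie beyond 5000 bp from any. They start 12621 bp from the 5′ end of Tbx5 and reach to 39057 bp from it, on the side on which RefSeq places Tbx3 as the neighbouring protein-coding gene. The nearest, from 120269777 to 120272051, held 124 ChIP and 14 input tags, and the longest, from 120252478 to 120254995, held 130 and 15. The farthest, from 120244851 to 120245615, held 55 ChIP and 2 input tags at 72.0 ChIP tags per kb. This was denser than any of the 21 regions, but within the interval of the densest of them, at Tbx2 (50.7 to 73.7). Summed, the 7 regions held 582 ChIP against 64 input tags, a ratio of 9.09 (7.02 to 12.0), which overlaps that of the 5 Tbx5 regions. With them, the stretch at Tbx5 came to 12 regions and 16784 bp, more listed sequence than at Tbx4.

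Tbx3, whose gene is the partner of Tbx5 on chromosome 5, was named by 0 regions. The list gives no position for genes that it does not name, so the distance from Tbx3 to the nearest of the 7 regions was not measured. Tbx6, the gene of paraxial mesoderm, was also named by 0 regions. In this list the lowest ChIP height was 8.0 and no region had fewer ChIP tags than 20. These are the lowest values seen, and the limits that the caller used are not known. Signal too weak to be listed, or a region more than 5000 bp away, would leave either gene unnamed.

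Tbx15, a gene of limb and body wall mesenchyme on chromosome 3, had 4 regions around a 5′ end at 99057683. The largest lay 1539 bp upstream, from 99053459 to 99056144, with 130 ChIP against 29 input tags, the most input tags of the 21 regions after the large one at Tbx4. The 3 others lay 8374, 12499 and 14330 bp into the gene, with 46 ChIP and 4 input tags, 62 and 12, and 49 and 9. A gap of 9913 bp around the 5′ end separated the upstream region from those in the gene. In total 287 ChIP against 54 input tags made the ratio 5.31 (3.96 to 7.25).

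As at Tbx5, regions without a named gene continued upstream of Tbx15. There were 3 of them, 6665, 15096 and 16469 bp from the 5′ end, with 75 ChIP and 8 input tags, 34 and 7, and 108 and 16. Their summed ratio was 7.0 (4.79 to 10.6). RefSeq lists Wars2 as the next protein-coding gene on this side. Tbx18, the close relative of Tbx15, had 1 region, on chromosome 9 from 87629952 to 87631165 and 3857 bp upstream of the gene, with 64 ChIP against 10 input tags, a ratio of 6.40 (3.26 to 14.0).

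Tbx1, the gene of the pharyngeal arches and the outflow tract on chromosome 16, had 3 regions around a 5′ end at 18587062. The region upstream, 2618 bp from the 5′ end, held 96 ChIP against 9 input tags, a ratio of 10.7 (5.39 to 24.0). The regions within the gene, 1290 and 5192 bp from the 5′ end, held 61 ChIP and 15 input tags and 45 and 10, with ratios of 4.07 (2.28 to 7.70) and 4.50 (2.24 to 10.0). The region 1290 bp from the 5′ end had the highest profile of the 21, with a height of 10.6. Input was higher within the gene, at 11.5 and 12.0 tags per kb, than upstream, at 4.89. These densities rest on 15, 10 and 9 input tags, and no intervals were computed for them. The ChIP densities were 47.0, 54.2 and 52.2 tags per kb, with overlapping intervals.

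Tbx20, a heart gene on chromosome 9, had the least sequence of the 8. Its region from 24582917 to 24583592 lay 4171 bp upstream and held 37 ChIP against 8 input tags, a ratio of 4.62 (2.12 to 11.5). Tbx21, the T helper cell gene on chromosome 11, had a region of 2394 bp from 96977186 to 96979580, which ended 541 bp short of the gene on the upstream side. It held 135 ChIP against 19 input tags, a ratio of 7.11 (4.38 to 12.2), and ranked 125. None of 9 other genes of T helper cells, among them Gata3, Foxp3 and Ifng, was named by a region, a number too small to read against a background of 3.9%.

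In all, 13 of the 21 regions overlapped their gene, 61.9% against 56.9% of all gene assignments in the list. The 8 others lay upstream, as did 26.8% of all gene assignments. Regions that overlapped the gene were found at 5 of the 10 genes, where the background was 2.53% of protein-coding genes. Regions within 2500 bp of a 5′ end were also found at 5 of the 10, against 2.2%. These were not the same 5, since Tbx21 entered through its upstream region and Tbx2 dropped out. A ChIP height of at least 10 was reached at 3 genes (Tbx1, Tbx2 and Tbx4), against a background of 0.708%.

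To show the sequence at gene starts, the RefSeq promoters (GRCm38.p6, 250 bases before to 50 after the start) of 4 genes are given with each CpG in capitals. None of them is shown to lie in a listed region. The table holds promoters for 6 of the 10 genes, Tbx1, Tbx4, Tbx6, Tbx18, Tbx20 and Tbx21. CpG-rich starts are common among PRC2 targets. Tbx20 and Tbx21 had a region upstream, 4171 and 541 bp from the 5′ end in the list, farther than the 250 bases shown. Tbx4 had the most sequence in regions, and Tbx6 had none. Builds were not converted, so which start of Tbx4 this promoter belongs to was not determined.
Tbx20 (chr9:24774254-24774553, minus strand): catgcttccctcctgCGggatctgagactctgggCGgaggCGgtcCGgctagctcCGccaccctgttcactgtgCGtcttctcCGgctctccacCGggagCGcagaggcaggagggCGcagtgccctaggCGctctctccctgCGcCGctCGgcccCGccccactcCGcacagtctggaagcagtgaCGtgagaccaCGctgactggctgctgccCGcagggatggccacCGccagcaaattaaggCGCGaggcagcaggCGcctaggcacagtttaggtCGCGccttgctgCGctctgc
Tbx21 (chr11:97115282-97115581, minus strand): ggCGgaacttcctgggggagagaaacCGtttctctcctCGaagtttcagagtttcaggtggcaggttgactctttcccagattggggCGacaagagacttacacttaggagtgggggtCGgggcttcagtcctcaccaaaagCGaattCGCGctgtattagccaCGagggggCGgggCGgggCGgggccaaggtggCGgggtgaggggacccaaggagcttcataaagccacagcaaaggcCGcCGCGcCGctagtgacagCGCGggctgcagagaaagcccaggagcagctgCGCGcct
Tbx4 (chr11:85896515-85896814, plus strand): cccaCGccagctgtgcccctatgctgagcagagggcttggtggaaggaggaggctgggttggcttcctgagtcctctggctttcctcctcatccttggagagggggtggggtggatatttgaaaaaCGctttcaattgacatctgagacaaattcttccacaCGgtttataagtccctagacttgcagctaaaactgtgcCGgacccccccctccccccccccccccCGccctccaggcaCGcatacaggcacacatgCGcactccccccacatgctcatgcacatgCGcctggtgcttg
Tbx6 (chr7:126781233-126781532, plus strand): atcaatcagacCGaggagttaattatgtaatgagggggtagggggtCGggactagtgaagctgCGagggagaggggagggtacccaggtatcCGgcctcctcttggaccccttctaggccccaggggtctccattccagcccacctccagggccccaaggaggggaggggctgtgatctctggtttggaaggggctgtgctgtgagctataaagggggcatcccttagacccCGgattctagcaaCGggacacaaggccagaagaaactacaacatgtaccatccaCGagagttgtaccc

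The promoter of Tbx20 held 26 CpG, that of Tbx21 held 21, that of Tbx18 held 15, and those of the starts of Tbx1 held 26 and 16. Tbx4, with 8 CpG, and Tbx6, with 7, were the lowest. Promoters of protein-coding genes that the list named had a median of 17 CpG, and those of the genes that it did not name had 13. The core of the T-box binding motif, AGGTGT, was searched on both strands. It was present in 1 of the 7 promoters of these 6 genes, at Tbx1, and in 13.7% of all 32851 promoters.

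No listed region had a ChIP height below 8.0, and a lower limit on height would restrict how far ChIP density can vary. The limits that the caller used are not known. Over the 21 regions ChIP density ran from 42.1 to 61.4 tags per kb with a median of 52.5, and the median of the 1996 other regions was 54.5. Input density ran from 2.23 to 12.0 tags per kb, with a median of 6.81 against 6.21 in the other regions. The deposited enrichment raises the input to a floor of 9.21 tags per kb, which applied to 16 of the 21 regions (76.2%) and to 77.0% of the others. Measured tags are therefore given here. With the floor the summed ratio of the 21 regions was 5.41 in place of 7.5.

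**Figure D2:**
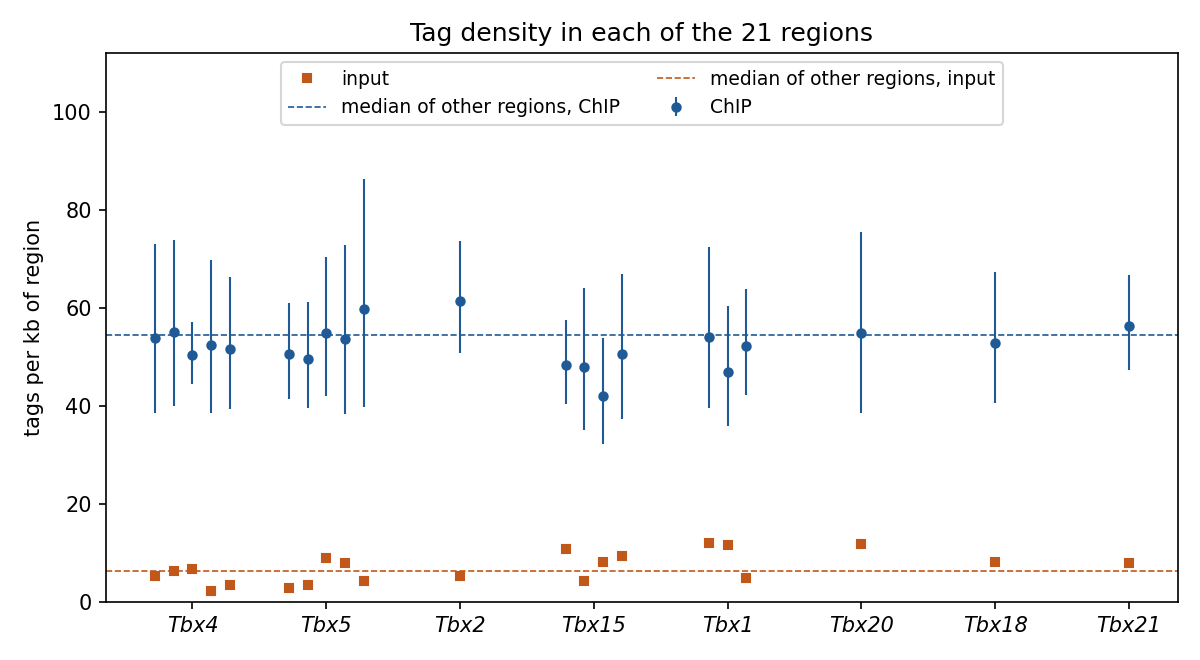
Tags per kb in each of the 21 regions (y axis) grouped by gene (x axis), with circles for ChIP tags and their exact 95% Poisson intervals, squares for input tags, and dashed lines for the medians of the other regions. ChIP density lies between 42.1 and 61.4 at all 8 genes, and input density is below 12.1 throughout.

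By the ratio of ChIP to input tags the order was Tbx2 (11.5), Tbx5 (10.7), Tbx4 (9.06), Tbx21 (7.11), Tbx18 (6.40), Tbx1 (5.94), Tbx15 (5.31) and Tbx20 (4.62). Every neighbour in this order overlapped the next within its interval. Of the 28 pairs of genes, 1 did not overlap, Tbx5 (7.37 to 16.2) and Tbx15 (3.96 to 7.25). Their ChIP densities were close, 52.1 (46.6 to 58.1) and 47.1 (41.9 to 52.9) tags per kb, and their input densities were 4.85 and 8.87. By ChIP density, 0 of the 28 pairs had separate intervals. With the input raised to the floor, the order changed to Tbx2 (6.67), Tbx21 (6.12), Tbx18 (5.73), Tbx5 (5.66), Tbx4 (5.59), Tbx1 (4.82), Tbx15 (4.75) and Tbx20 (4.62), so that Tbx5 and Tbx4 came after Tbx21 and Tbx18.

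The 21 regions together held 1606 ChIP against 214 input tags, a ratio of 7.5 (6.50 to 8.70), and the 1996 others had a ratio of 7.47 (7.35 to 7.58). The interval of 7 of the 8 genes contained this value of 7.47, and Tbx15 lay below it, with an upper limit of 7.25. With its unnamed neighbouring regions counted, Tbx15 had 5.93 (4.70 to 7.55), an interval that contained 7.47. Counted in the same way, Tbx5 had 9.62 (7.77 to 12.0), which lay above 7.47. The rule for counting unnamed regions was chosen after seeing the data. ChIP density at Tbx5 was 52.1 tags per kb in the named and 54.9 in the unnamed regions, beside a median of 54.5 in the other regions. The higher ratio thus came with no higher ChIP density. Median length (1164 against 1065 bp), median height (8.66 against 8.68) and the share of regions with a height of at least 10 (14.3% against 13.1%) were close to those of the other regions. The median −log10 q-value was 42.0 against 48.1.

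**Figure D3:**
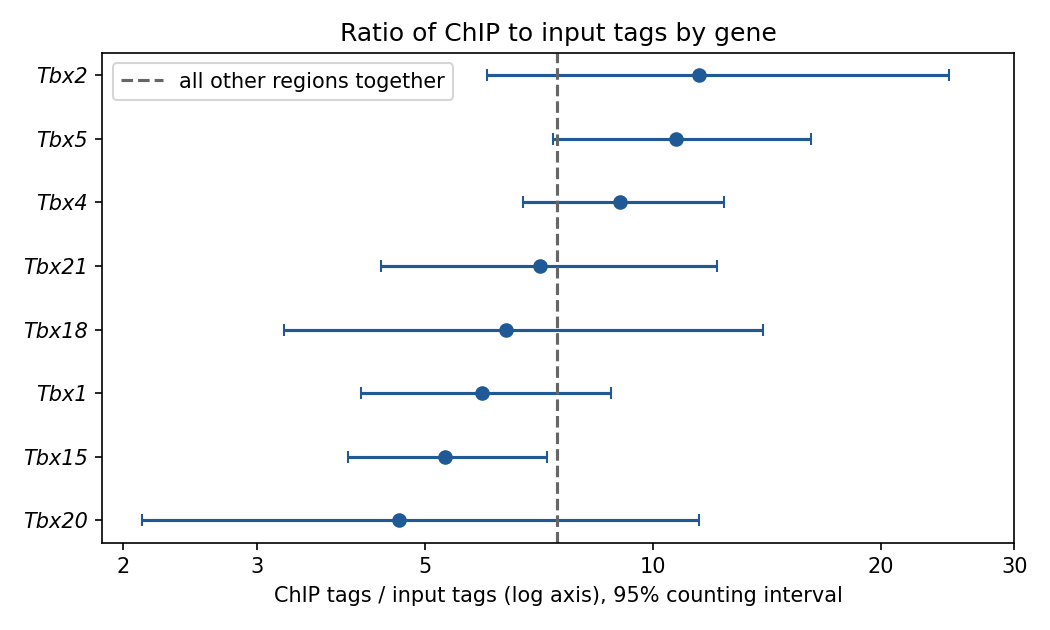
Ratio of ChIP to input tags on a log axis (x) for the 8 genes with a region (y), with bars for the 95% Clopper-Pearson interval and a dashed line at the ratio of all other regions together (7.47). Tbx5 and Tbx15 are the only pair whose bars do not overlap, and Tbx15 is the only gene whose bar misses the line.

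Of the 7 other genes of the T-box family, 3 had a region, 1 each. Brachyury (T), the founding gene of the family and a gene of mesoderm and notochord, had a region 2830 bp upstream on chromosome 17 with 69 ChIP against 4 input tags and a height of 10.3. Eomes had 109 ChIP and 15 input tags within the gene on chromosome 9, and Tbr1, a gene of cortical neurons, 57 and 2 within the gene on chromosome 2. Tbx10, Tbx19, Tbx22 and Mga were named by 0 regions. Over the family, 11 of 17 genes were named, beside the background of 3.9% of protein-coding genes. In other families of transcription factors the numbers were 8 of 9 Pax genes, 8 of 8 Lhx genes and 13 of 44 Fox genes, and the ratios of ChIP to input tags over their regions were 7.65 (6.70 to 8.76), 7.73 (6.82 to 8.79) and 7.96 (6.84 to 9.32). The named genes had a median of 2 regions among the 10 T-box genes, 2.5 in the Pax, 3 in the Lhx and 1 in the Fox family. These differences were not tested.

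Genes that work beside the T-box genes in each field were counted as well. In the limb, 8 of 18 were named, and in the heart 7 of 15. Among limb genes, Pitx1, which acts with Tbx4 in the hindlimb, had 3 regions with 214 ChIP and 18 input tags, a ratio of 11.9 (7.34 to 20.4), and Lmx1b, the dorsal limb gene, had 6 regions with 542 and 76. Sall1, Msx1, Msx2, Alx4, Shh and Hand2 were the other named limb genes. Fgf10 and Fgf8, which encode signals of limb outgrowth, were named by 0 regions, as were Meis1, Meis2, Gli3, Grem1, Prrx1, Sall4, Lef1 and Tcf7.

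Among heart genes, Hand2 and Gata4 had 4 regions each, with 341 ChIP and 35 input tags and 272 and 33. Hand1 also had 4, with 302 ChIP and 24 input tags. Gata6, Irx4, Isl1 and Nkx2-5 were named too, Nkx2-5 by a single region with 36 ChIP and 0 input tags. Nppa, Nppb, Gja5, Bmp10, Smyd1, Gata5, Mef2c and Myocd were named by 0 regions.

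In the list of somite and tail bud genes, 8 of 17 were named. Pax3, a gene of the dermomyotome, had 5 regions with 416 ChIP and 50 input tags. Pax1, a gene of the sclerotome, had 2 regions with 156 and 24, and Wnt3a had 4 with 236 and 34. Dll1, which encodes a Notch ligand and is a target of Tbx6, had 1 region with 115 ChIP and 11 input tags, and Dll3 had 1 with 102 and 7. Meox1, Uncx and Sim1 had 1 region each. Mesp1, Mesp2, Msgn1, Ripply1, Ripply2, Hes7, Lfng, Meox2 and Tcf15 were named by 0 regions. Over the 4 lists, T helper cells included, 22 of 58 different genes were named (37.9%, beside the background of 3.9%). The lists were drawn up with earlier results of this map in view.

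**Figure D4:**
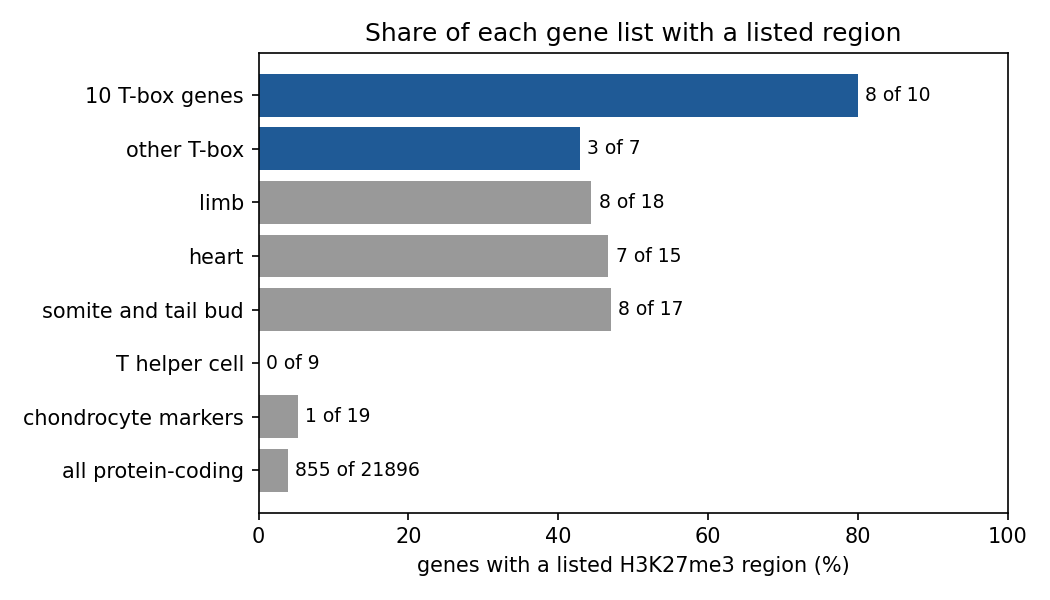
Percentage of the genes of each list that a region names (x axis, with the counts beside the bars), for the 10 T-box genes, the rest of the family, genes of the same fields, cartilage markers and all protein-coding genes. The limb and somite lists have 8 named genes each and the heart list 7, the T helper cell list has 0 of 9, and the background is 3.9%.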

How the data were processed

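H3K27me3 was mapped by ChIP-seq in rib chondrocytes pooled from 11 mice, with 1 ChIP and 1 input library. QuEST was the caller with which the authors listed regions, after mapping to mm9 with the DNA Nexus mapper. The settings of both are not given in the sources used here. The deposited list holds whole-number counts of ChIP and input tags per region, the height of the tag profile (signal), the ratio of ChIP to input tags (enrichment), a −log10 q-value, the rank and the distances to a gene. Depth outside regions is unknown, and PCR duplicates may be among the tags.

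All rows naming one of the 10 genes were taken. Tags were summed per gene. Intervals are Clopper-Pearson for the ChIP share, written as a ratio, and exact Poisson for tags per kb, at 95%. The 5′ end of a gene was read from distances that its regions shared. Of 922 gene names, 912 matched RefSeq symbols or synonyms, and all 10 genes were found there. Without replicates no test was made. Functions were checked on artificial regions with known answers. The genes and lists were chosen with earlier results of these data known. The genes named are the 10, the rest of the family and those of the lists, from which a few genes are not reported here and were left out of the counts. Alternatives are given in the closing section. The work was done in Python 3.11.15, with scipy 1.17.1 for intervals, pandas 2.3.3 and numpy 2.4.6 for tables, and matplotlib 3.10.9 for plots.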

Additional observations from a re-analysis of the deposited data

Results flagged for a closer look

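Regions that the list assigns to no gene fall outside a count by gene name, and such regions lie beside 2 of the T-box genes. Every listed region was called for ChIP signal above input, so their ratios are given as a description. For the 7 such regions next to Tbx5, 582 ChIP against 64 input tags made the ratio 9.09 (7.02 to 12.0), and for the 3 next to Tbx15, 217 against 31 made it 7.0 (4.79 to 10.6). A ratio of this size was usual in the list, where the regions that name none of the 10 genes had 7.47 together. An unnamed region was counted when the named region closest to it lay within 50000 bp and belonged to any of the 10 genes. Unnamed regions closer to a region of another gene were left out. The distance was chosen after seeing the data, and by this rule the other 6 genes with a region had 0 such neighbours. Whether the 7 and the 3 regions belong to Tbx5 and Tbx15 was not tested.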

How the results depend on the processing

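With only regions overlapping the gene, 5 of the 10 T-box genes and 13 regions were left. When a region had to lie no more than 2500 bp from a 5′ end, 5 of the 10 genes, 6 regions, 0 of the other T-box genes and 14 of the 58 partner genes were left. A ChIP height of at least 10 left 3 of the 10 genes, 3 regions, 1 other T-box gene and 8 partner genes. A −log10 q-value of at least 50 left 9 of the 21 regions. With the input raised to the floor of 9.21 tags per kb, the summed ratio was 5.41. These settings keep fewer regions or raise the input by construction. Of 101 recomputed values, 60 stayed close to the value given (a ratio within its interval, a count or length within a factor of 1.5) and 41 did not, of which 24 were bp in regions of single genes and 5 were ratios of single genes. Among the latter, Tbx1 moved from 5.94 to 4.07 with only regions near the 5′ end and to 10.7 with the q-value limit, and Tbx4 and Tbx5 fell to 5.59 and 5.66 with the floor. Tbx2 fell from 11.5 to 6.67, within its interval. Counting the unnamed neighbouring regions as well, chosen after seeing the data, gave 31 regions with 7.78 times as many ChIP as input tags. A median of 61 ChIP and 9 input tags per region at these genes limits the precision. No paired analysis was possible because there was 1 library of each kind.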
